A study of Mus musculus with 4 samples.

Results

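The regions described here are the open chromatin regions at the 3 E protein genes Tcf3, Tcf12 and Tcf4 and at the 3 Id genes Id1, Id2 and Id3 of the mouse. They were all regions, merged across the 4 ATAC-seq peak lists wherever peaks shared at least 1 base, that overlapped the gene record of 1 of these 6 genes or the 50 kb on either side of it. This gave 107 of the 93679 merged regions, 68 at the E protein loci (18 at Tcf3, 26 at Tcf12 and 24 at Tcf4) and 39 at the Id loci (15 at Id1, 7 at Id2 and 17 at Id3). Naive CD4+ T cells (CD62LhighCD44lowCD25-) sorted from the spleens of 7-week-old male C57BL/6 mice were activated for 48 h with 5 µg/ml anti-CD3 and 1 µg/ml anti-CD28, and every culture also received 5 ng/ml TGF-β1 and 10 ng/ml IL-2. The 2 iTreg+IL-4 libraries came from cultures with 15 ng/ml IL-4 added, and the 2 iTreg+PBS libraries from cultures without it. The libraries are described by the study as biologically independent pooled samples, and no gene was deleted or introduced in them.

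E proteins are basic helix-loop-helix transcription factors that bind the E-box, CANNTG, as dimers. Tcf12 encodes HEB. Id proteins carry the helix-loop-helix part but no basic part, so that a dimer of an Id and an E protein cannot bind DNA. In CD4+ T cells the balance between them takes part in lineage choice and in the upkeep of regulatory T cells. Id1 is a classic target of BMP and SMAD signalling, and Id3 is induced downstream of the T cell receptor through Egr factors. IL-4 signals through STAT6.

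The sequences that the results turn on are shown first, 5′ to 3′, read from GRCm38 (mm10). Id1 region 1 is printed because with all 4 libraries it showed the widest difference in mean rank between the conditions at the 6 loci. It covers chr2:152693212-152693566 in an intron of H13, 42.9 kb upstream of Id1, and its 300 central bases are given on the plus strand. Capitals mark E-boxes in every sequence except the last.
Id1 region 1: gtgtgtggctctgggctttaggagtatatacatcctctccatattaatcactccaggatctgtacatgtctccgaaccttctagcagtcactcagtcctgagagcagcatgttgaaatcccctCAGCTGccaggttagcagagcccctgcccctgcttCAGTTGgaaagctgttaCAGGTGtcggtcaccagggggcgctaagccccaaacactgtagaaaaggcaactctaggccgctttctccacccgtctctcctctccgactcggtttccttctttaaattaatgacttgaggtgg
The Id2 promoter and the distal region upstream of it are shown because Id2, a short gene, had few other regions. The first run is chr12:25096254-25096342 on the minus strand, a part of the bases before the RefSeq start that lies outside the untranslated regions and within Id2 region 3. The second is the centre of Id2 region 4 (chr12:25098463-25099029, intergenic, 1.6 kb upstream), on the plus strand.
Id2 promoter: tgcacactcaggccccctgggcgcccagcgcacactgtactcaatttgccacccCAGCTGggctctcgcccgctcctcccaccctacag
Id2 region 4: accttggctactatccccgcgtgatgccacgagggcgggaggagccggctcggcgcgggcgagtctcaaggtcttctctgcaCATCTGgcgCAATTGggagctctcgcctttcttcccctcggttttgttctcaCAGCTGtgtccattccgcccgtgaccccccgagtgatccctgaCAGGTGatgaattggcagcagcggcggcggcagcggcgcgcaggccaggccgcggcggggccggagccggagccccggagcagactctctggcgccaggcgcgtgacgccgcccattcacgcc
Id3 region 9 (chr4:136147533-136148407, intergenic, 4.5 kb downstream of the Id3 start) had the best mean rank of the 36 distal regions called in all 4 libraries, and its centre is on the plus strand.
Id3 region 9: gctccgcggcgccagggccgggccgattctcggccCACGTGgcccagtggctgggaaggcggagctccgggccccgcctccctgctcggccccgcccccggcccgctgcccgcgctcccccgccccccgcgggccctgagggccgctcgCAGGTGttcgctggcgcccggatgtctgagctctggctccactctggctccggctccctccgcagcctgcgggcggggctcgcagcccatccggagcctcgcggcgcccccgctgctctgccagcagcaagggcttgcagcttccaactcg
For Tcf12, the run chr9:72111872-72112069 before the upstream RefSeq start is given on the minus strand. It is part of Tcf12 region 25, the main promoter region. Tcf12 region 11 (chr9:72021711-72021930) is whole and on the plus strand, as the only region of the Tcf12 locus that both lists with IL-4 hold and both lists without it lack.
Tcf12 promoter: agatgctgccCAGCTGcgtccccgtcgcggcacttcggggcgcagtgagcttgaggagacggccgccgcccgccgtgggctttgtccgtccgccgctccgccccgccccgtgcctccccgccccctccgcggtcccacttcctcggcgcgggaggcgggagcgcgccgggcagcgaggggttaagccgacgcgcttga
Tcf12 region 11: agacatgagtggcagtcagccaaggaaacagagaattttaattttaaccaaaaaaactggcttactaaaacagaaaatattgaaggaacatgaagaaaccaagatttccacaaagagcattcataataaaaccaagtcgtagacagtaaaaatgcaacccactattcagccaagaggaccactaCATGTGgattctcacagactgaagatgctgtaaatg
The centre of Tcf12 region 18 (chr9:72076077-72076575, intronic, 35.5 kb downstream of the start) is on the plus strand, and there the capitals mark TTCNNNNGAA, the palindrome bound by STAT6.
Tcf12 region 18: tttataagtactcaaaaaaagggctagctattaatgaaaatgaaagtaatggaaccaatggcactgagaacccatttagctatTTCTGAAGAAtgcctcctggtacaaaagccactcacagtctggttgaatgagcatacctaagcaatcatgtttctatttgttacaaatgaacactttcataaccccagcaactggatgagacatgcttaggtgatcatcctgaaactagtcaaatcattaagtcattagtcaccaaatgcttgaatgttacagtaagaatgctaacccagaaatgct

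The Id1 sequence holds 3 E-boxes, of which 1 is CAGCTG and 1 is CAGGTG, the forms that E proteins prefer. The centre of Id2 region 4 holds 4 E-boxes, with the same 2 forms among them. Tcf12 region 11 has a single E-box, CATGTG, in a stretch with a GC content of 36.8%, while the centre of Id3 region 9 has a GC content of 78.3%. The RefSeq promoter table had 6 entries for 4 of the genes (Tcf3, Tcf12, Id2 and Id3), and all 6 were identical to the genome sequence. Id1 and Tcf4 were not in it.

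Each list held MACS2 peaks with a −log10 q-value and a height, both set within its own library and not scaled between libraries. A region was therefore described by whether a library called it and by its rank, the percentage of peaks of the same list that had a higher −log10 q. A rank near 0 is among the best of the list and a rank near 100 among the weakest. The 2 iTreg+PBS lists held 77064 and 56645 peaks and the 2 iTreg+IL-4 lists 78670 and 67743. The second iTreg+PBS library was the shortest of the 4, and the main counts and widest differences are given without it as well. The reads behind the lists were not analysed here, so read depth is unknown. The promoters of all 8 T cell markers were called in all 4 libraries. Of the other cell types, none of the 3 myeloid promoters was called, and Cd79a was not called. Ms4a1 was called in 3 libraries, the NK gene Klrb1c in iTreg+IL-4 replicate 1, Cd8a in replicate 1 of each condition and Cd8b1 in all 4 at ranks of 31.5 to 38.8. These cultures were bulk samples, in which a smaller share of open cells and less accessibility per cell cannot be told apart.

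The share of regions called throughout was near that of the series. A total of 55 of the 107 regions (51.4%) were called in all 4 libraries, against 51.0% of all regions of the series. A further 13 regions were called in 3 libraries, 9 of which were missing from iTreg+PBS replicate 2 alone, 3 were called in 1 library of each condition, and 30 were called in 1 library. Id3 had the largest share of regions called in every library (14 of 17), followed by Id1 (9 of 15), Id2 (4 of 7), Tcf3 (9 of 18), Tcf12 (13 of 26) and Tcf4 (6 of 24). The share was 69.2% over the Id loci and 41.2% over the E protein loci. Without iTreg+PBS replicate 2 it was 74.4% and 53.0%, and 64 of 105 regions (61.0%) were called in the 3 remaining libraries, against 62.3% of all regions.

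The gene records are Tcf3 at chr10:80409514-80433647 (minus strand), Tcf12 at chr9:71842688-72111871 (minus), Id1 at chr2:152736251-152737410 (plus), Id2 at chr12:25093799-25097140 (minus) and Id3 at chr4:136143497-136145755 (plus). Tcf3, Id1 and Id3 lay in region-rich surroundings. Their windows held 14.5, 14.8 and 16.6 regions per 100 kb, more than those of 90.0%, 91.1% and 95.2% of the 21938 protein-coding genes treated the same way (median 6.71). Tcf12 (7.04), Id2 (6.77) and Tcf4 (5.38) were near that median. The Tcf3 and Id1 windows each also covered 4 other coding genes, and the Id2 and Id3 windows 1 each (E2f2 beside Id3), so a region there cannot be assigned to the E protein or Id gene by position alone. By class, 14 of the 107 regions lay within 1 kb of an annotated start of the gene itself and are called promoter regions. Another 14 lay within 1 kb of a start of another gene, and 79 were distal.

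**Figure D1:**
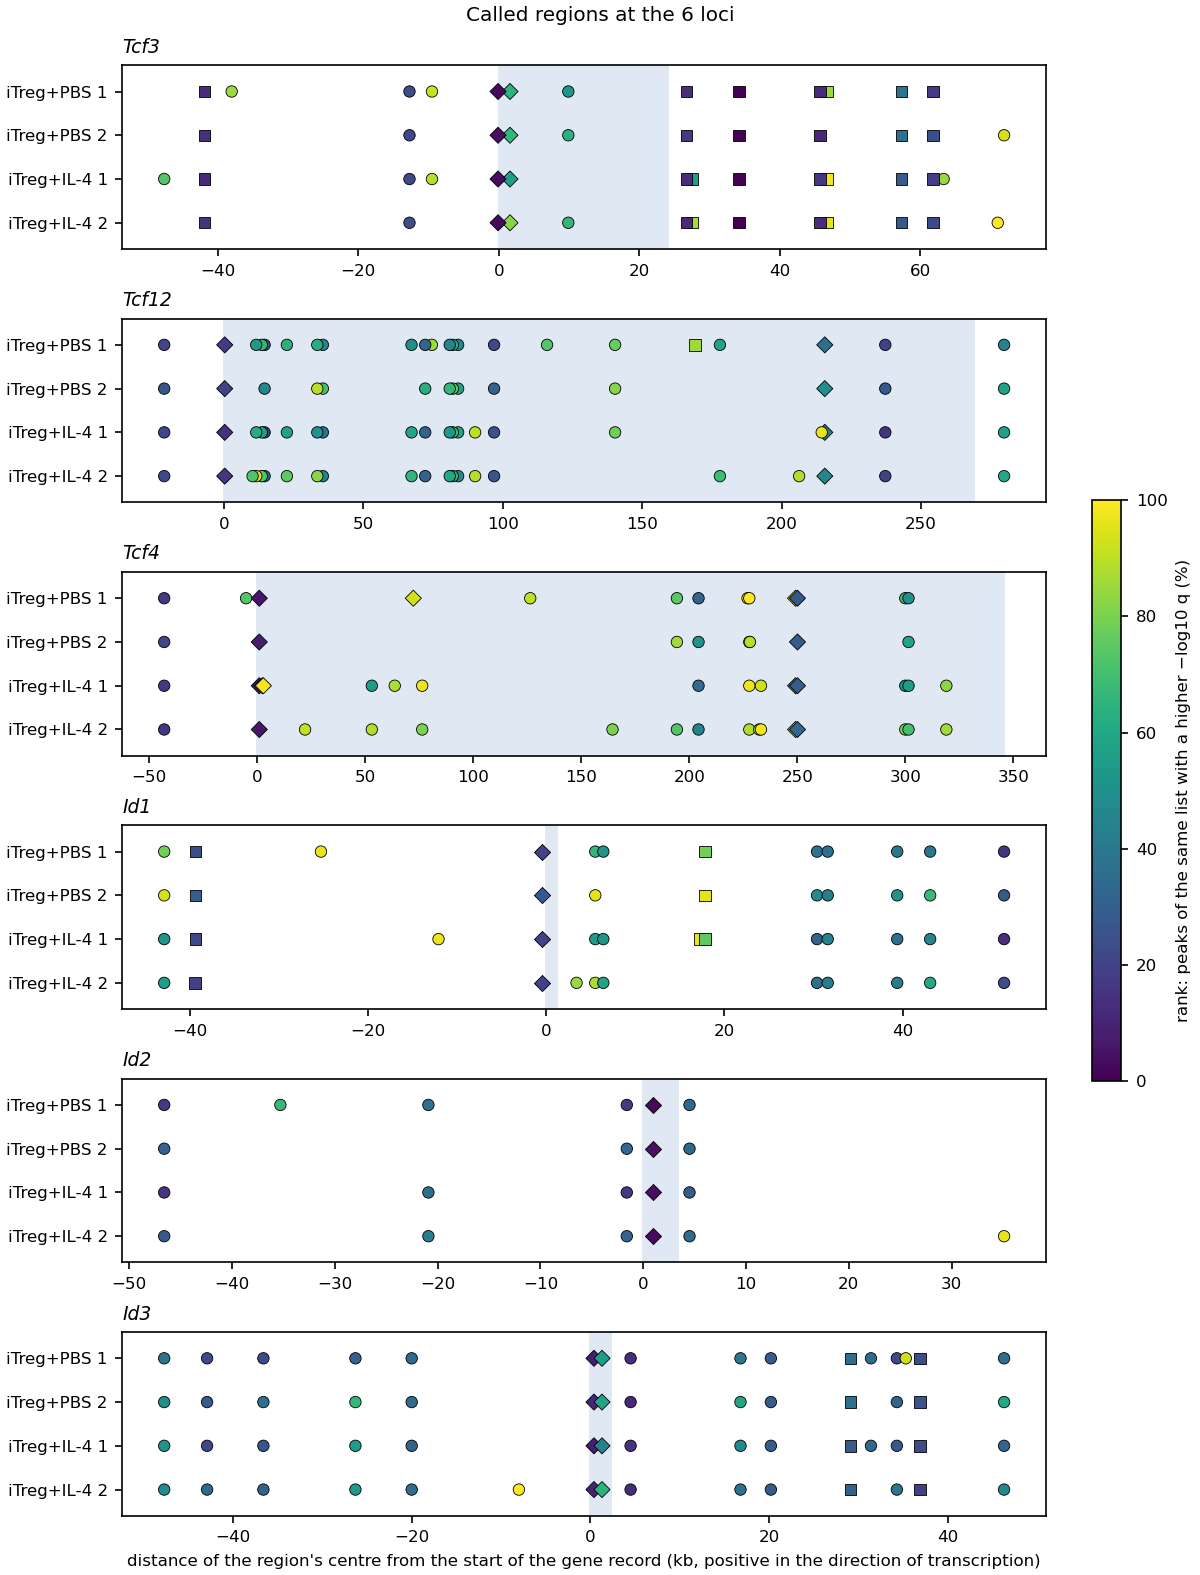
Regions called in each library (rows) by the distance of their centre from the start of the gene record, in kb and positive in the direction of transcription. Diamonds are promoter regions of the gene, squares lie within 1 kb of another gene's start, circles are distal, shading is the gene record and colour is the rank within the list (dark is best). Id3 shows 14 of 17 regions present in all 4 rows, Tcf4 shows 6 of 24.

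All 6 genes had a promoter region that was called in all 4 libraries, as did 60.2% of the 21911 protein-coding gene names. The strongest were those of Tcf3 and Id2. The Tcf3 promoter (region 13, chr10:80433103-80434444) had ranks of 2.71 and 4.07 in the 2 iTreg+PBS libraries and of 3.13 and 2.45 in the 2 iTreg+IL-4 libraries. The Id2 promoter (region 3, chr12:25095838-25096722) had ranks of 2.71 and 4.57 without IL-4 and of 3.17 and 2.38 with it. In both genes the values of the conditions overlapped. For comparison, the median over the series of the mean rank of regions near a start site was 17.4.

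The Id3 promoter (region 7, chr4:136143487-136144212), centred on the untranslated first part of Id3, had ranks of 8.19 and 10.7 without IL-4 and of 8.51 and 9.73 with it, which overlapped. A weaker Id3 region 1.3 kb into the gene (region 8) had ranks of 55.1 and 57.9 against 43.5 and 64.1. The Id1 promoter (region 5, chr2:152734878-152736577) was the weakest of the 3 Id promoters, at 19.9 and 28.0 without IL-4 and at 18.8 and 19.6 with it. There both iTreg+IL-4 ranks were better than both iTreg+PBS ranks, the nearest pair being 19.6 and 19.9.

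The Tcf12 promoter (region 25, chr9:72110789-72112343) ranked 16.7 and 19.7 without IL-4 and 13.9 and 15.1 with it, so that both iTreg+IL-4 ranks were better. Tcf12 has 20 annotated starts, and a region at an internal start 215.5 kb into the gene (region 3) ranked lower in every library, at 36.6 and 49.4 against 41.1 and 46.3, with overlap. A second Tcf3 region 1.6 kb into the gene (region 12) stood at 64.4 and 65.8 without IL-4 and at 56.6 and 81.8 with it.

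Tcf4 (chr18:69343356-69689079, plus strand), with 58 annotated starts, had 6 promoter regions. The one 1.0 kb from the start of the record (region 3) was the strongest, at 5.79 and 8.53 without IL-4 and 5.30 and 6.03 with it. The internal one 250.1 kb into the gene (region 21) ranked 27.2 and 28.4 without IL-4 and 28.4 and 32.9 with it. It was the only one of the 55 shared regions whose iTreg+IL-4 ranks were both poorer on this scale, and the nearest values (28.36 and 28.37) were almost equal. A neighbouring region at 249.2 kb (region 20) was called at ranks of 89.6, 65.7 and 85.3 and not in iTreg+PBS replicate 2. The remaining 3 were each called in 1 library, regions 4 and 5 in iTreg+IL-4 replicate 1 (94.9 and 98.6) and region 9, at 72.3 kb, in iTreg+PBS replicate 1 (92.8).

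**Figure D2:**
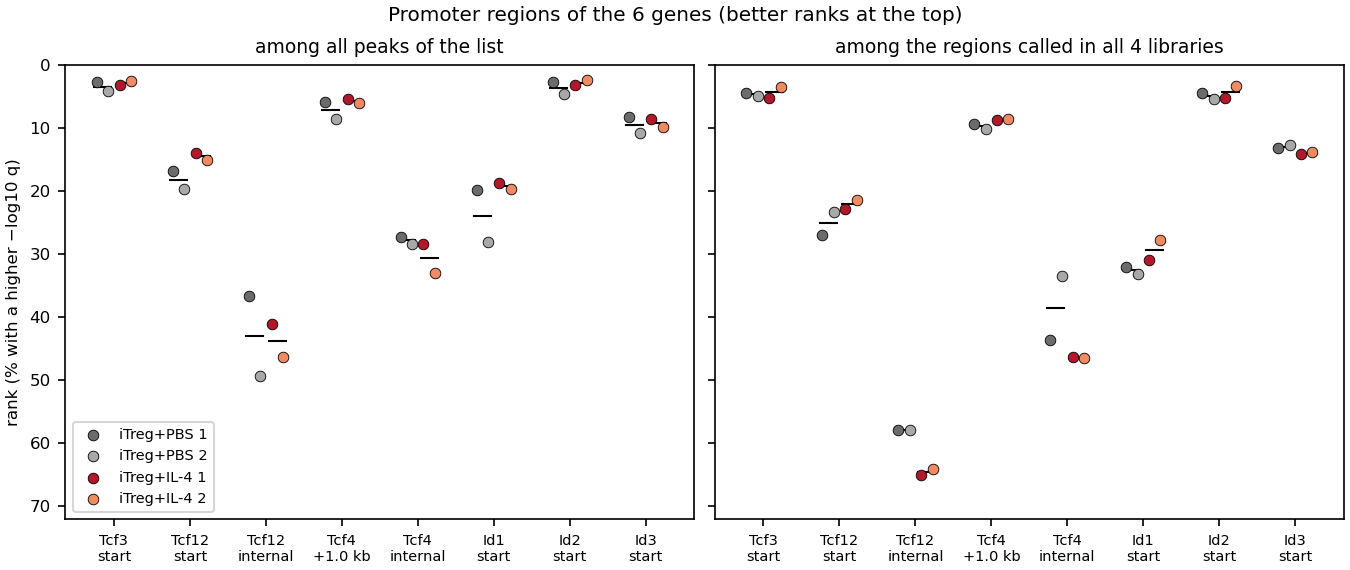
Rank of the 8 main promoter regions in each library (points) with the mean of the 2 libraries of a condition (bars), better ranks at the top. The left panel ranks within the whole list and the right panel among the 47767 regions called in all 4 libraries. Tcf3 and Id2 are near the top in every library, and the Tcf12 and Id1 start regions have both iTreg+IL-4 points above both iTreg+PBS points in the 2 panels.

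The lists differ in length, and weak peaks added at the end of a list would by themselves improve the rank of those above. How far list length set these ranks was not tested. Each shared region was therefore also ranked among the 47767 regions called in all 4 libraries. On that scale the Tcf12 promoter stood at 26.9 and 23.3 without IL-4 and at 22.8 and 21.4 with it, and the Id1 promoter at 32.0 and 33.1 against 30.8 and 27.8, so both kept their order. The Tcf4 region 1.0 kb from the start also separated, at 9.33 and 10.1 against 8.73 and 8.55. The internal Tcf4 region stood at 43.6 and 33.5 against 46.4 and 46.4, and the internal Tcf12 region at 57.9 and 57.9 against 65.1 and 64.1, both with poorer ranks with IL-4. The Id3 promoter was poorer with IL-4 as well, by a small margin, at 13.2 and 12.7 against 14.0 and 13.8.

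Over the 55 shared regions of the 6 loci, both iTreg+IL-4 ranks were better in 13 and poorer in 1 on the whole-list scale, and 41 overlapped. Of all regions called in all 4 libraries, 19.7% were better and 5.18% poorer in the same sense, so 13 of 55 (23.6%) was near the background. Ranked among shared regions the split turned to 9 better (16.4%) and 13 poorer (23.6%), against 14.3% and 12.7% of all shared regions. Better ranks with IL-4 thus outnumbered poorer ones at these loci on the first scale only, while over all shared regions they did so on both. Of the 55 regions, 7 were better and 1 poorer on both scales. Without iTreg+PBS replicate 2 the whole-list counts were 15 better and 24 poorer among 64 regions (23.4% and 37.5%), against 24.3% and 36.0% of all regions called in the 3 remaining libraries. Ranked only among the regions called in those 3 libraries, they were 19 better and 21 poorer (29.7% and 32.8%), against 32.0% and 29.6%.

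By locus, Id1 had 4 of 9 regions with better iTreg+IL-4 ranks on either scale and 1 (region 12) with poorer ranks among shared regions. The better ones were regions 1, 5 and 11 on both scales, region 2 on the first and region 13 on the second. Id3 had 1 better and none poorer of 14 on the whole-list scale but none better and 5 poorer among shared regions, including its promoter. The better region (region 12) was the promoter of E2f2, a neighbouring cell cycle gene, and 1 of the poorer ones (region 14) lay in an E2f2 intron. Tcf12 went from 4 better and none poorer of 13 to 3 better and 4 poorer. Tcf3 went from 3 better of 9 to 1 better and 1 poorer, all of them at promoters of other genes in the window, and Tcf4 from 1 and 1 of 6 to 1 and 2. None of the 4 shared Id2 regions separated the conditions on either scale.

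**Figure D3:**
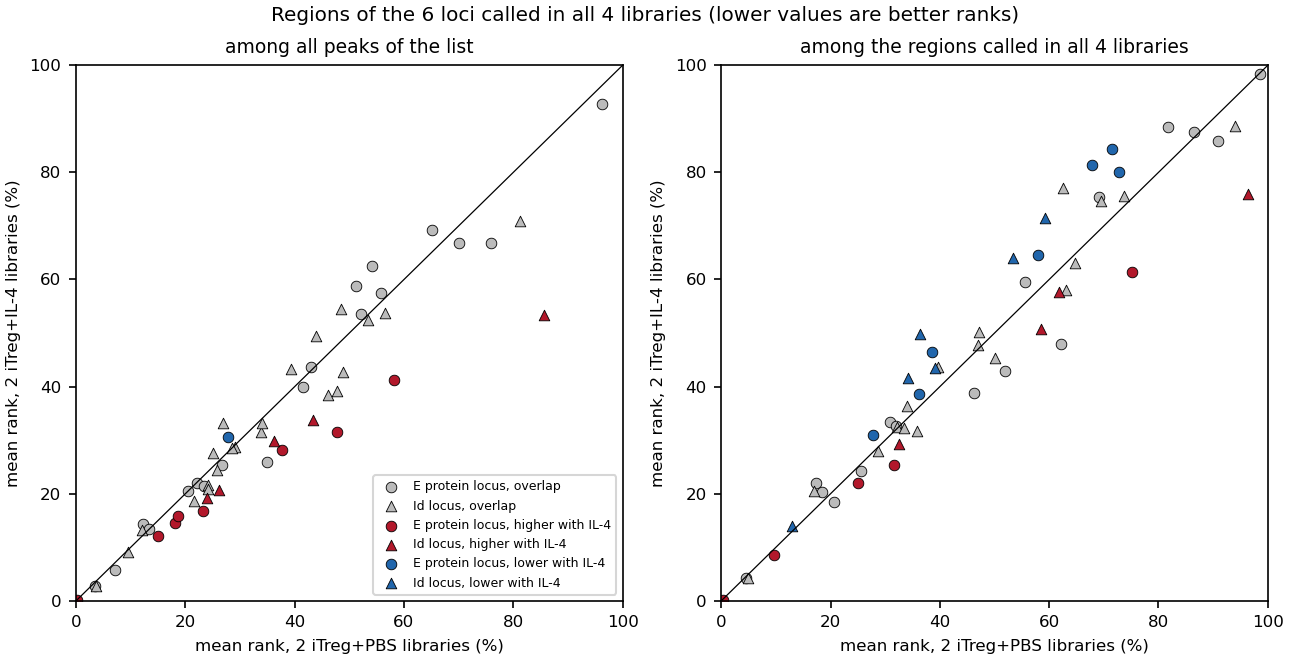
Mean rank of the 55 regions called in all 4 libraries, iTreg+PBS on the x axis and iTreg+IL-4 on the y axis, in % of the list (left) or of the regions called in all 4 libraries (right). Circles are E protein loci, triangles Id loci, and colour shows where the 2 conditions do not overlap. The 13 red and 1 blue points on the left become 9 red and 13 blue on the right, and Id1 region 1 is the triangle farthest below the line in both.

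With all 4 libraries, the widest difference in mean rank lay 42.9 kb upstream of Id1. Id1 region 1, whose sequence is shown above, had ranks of 78.4 and 93.0 without IL-4 and of 51.3 and 55.3 with it. The mean rank was better by 32.3 percentage points with IL-4, and 0.211% of all shared regions had a difference as large in that direction. By peak height the ranks were 66.1 and 77.6 against 47.7 and 50.6. Among shared regions they were 95.4 and 97.5 against 77.2 and 74.7, a difference of 20.5 points that 1.09% of shared regions reached. Without iTreg+PBS replicate 2 the differences were 25.05 points on the whole list and 19.5 among shared regions. The second scale was still that of the 47767 regions called in all 4 libraries, so its choice of regions depends on the omitted library. Without that library an intergenic region 26.3 kb upstream of Id3 (Id3 region 4) differed more on the second scale, by 28.2 points. Its ranks there were poorer with IL-4, and it was also chosen after its values were seen. Its whole-list ranks were 30.6 and 66.4 against 55.2 and 53.9, so the 2 iTreg+PBS libraries lay on either side of both iTreg+IL-4 libraries. The heights behind the ranks of Id1 region 1 were 34 and 17 without IL-4 and 54 and 43 with it, not scaled for depth. That region lay 1550 bases from a start of H13, so its position does not assign it to Id1. It falls outside the rule for named regions and was chosen after its values were seen.

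A pair of intronic Tcf12 regions had the next largest differences on the whole-list scale, and these too were chosen after their values were seen. Tcf12 region 18, 35.5 kb into the gene, ranked 45.3 and 70.9 without IL-4 and 37.8 and 44.8 with it, and 69.5 and 80.7 against 60.5 and 62.2 among shared regions. Tcf12 region 16, at 72.2 kb, ranked 32.3 and 63.1 against 31.7 and 31.4. Both differences rested on iTreg+PBS replicate 2. Without it, region 18 differed by 3.98 points in place of 16.8 and region 16 by 0.742 in place of 16.2. The first separated the conditions on both scales. The second separated them on the whole-list scale only, since among shared regions its values were 51.5 and 72.9 against 51.6 and 44.3.

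In total 6 of the 107 regions (5.61%) had a peak in each of the lists with IL-4 and in none of those without it, against 2.60% of all regions. The reverse pattern was found in 0 regions, against 0.699% of all regions. Without iTreg+PBS replicate 2 the counts turned to 6 and 11 of 105, against 3.41% and 8.21% of all regions. The first count was 15 of 96 without iTreg+PBS replicate 1, 15 of 100 without iTreg+IL-4 replicate 1 and 14 of 98 without iTreg+IL-4 replicate 2 (15.6%, 15.0% and 14.3%, against 13.6%, 7.25% and 11.1% of all regions). The second was 2 in each case, against 3.25%, 3.20% and 1.5% of all regions. Of the 6, 4 lay in Tcf4 introns, 1 in a Tcf12 intron and 1 in a Uqcr11 intron within the Tcf3 window. The Id loci had none. Among distal regions the count was 5 of 79 (6.33%), against 3.01% of all distal regions, and 36 of 79 were called in all 4 libraries, against 43.7%.

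These were mostly weak peaks. The Tcf4 regions lay 53.1, 76.4, 233.2 and 319.0 kb into the gene and ranked 55.3 and 88.5, 97.1 and 80.3, 92.6 and 98.3, and 82.6 and 85.6 in the 2 iTreg+IL-4 libraries. Tcf12 region 11 ranked 90.0 and 88.5, with heights of 17 and 15. The Uqcr11 region (Tcf3 region 9, chr10:80405944-80406249), near the start of Uqcr11, a subunit gene of a respiratory chain complex, ranked 56.0 and 87.3. Over the series, regions of this kind had median ranks of 80.2 and 83.0. With all lists shortened to the 56645 highest peaks of the shortest, 0 of the 6 kept both calls.

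Distal regions called in all 4 libraries had a median mean rank of 40.2 at the 6 loci (36 regions) and of 43.6 over the series. The best was Id3 region 9, with ranks of 12.6 and 11.5 without IL-4 and of 14.4 and 12.2 with it, stronger than the Id1 promoter in every library. Next came Tcf4 region 1, 43.0 kb upstream of Tcf4, at 16.5 and 20.8 against 16.4 and 15.3. Both iTreg+IL-4 ranks were better there, though they overlapped among shared regions (26.6 and 24.7 against 26.9 and 21.6).

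At Tcf12, the best distal regions lay 237.2 kb into the gene (region 2, 19.4 and 27.1 against 14.5 and 19.0), 21.4 kb upstream (region 26, 20.3 and 26.7 against 21.2 and 21.5) and 96.9 kb into the gene (region 10, 22.1 and 31.1 against 24.3 and 26.3). Region 2 had better ranks with IL-4 on both scales, and the others overlapped on the whole-list scale. Among shared regions, region 10 was poorer with IL-4 (35.6 and 36.7 against 39.9 and 37.2). Tcf3 had a single distal region called in all 4 libraries, 12.7 kb upstream (region 15), with ranks of 22.6 and 21.5 against 21.2 and 22.7. The other named Tcf4 regions, in introns at 204.3 and 301.5 kb, were weaker, at 32.0 and 51.2 against 35.1 and 44.9 and at 49.7 and 58.8 against 54.9 and 70.3. Among shared regions, the second was poorer with IL-4 (74.5 and 68.4 against 80.9 and 88.0).

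Id2 had a region 46.6 kb upstream (region 7) at 17.1 and 31.3 without IL-4 and 15.2 and 28.1 with it, and region 4, 1.6 kb upstream, at 16.8 and 34.7 against 17.1 and 31.7. In both, replicate 1 ranked better than replicate 2 in each condition, and the gap between replicates was wider than that between conditions. A region 4.5 kb downstream of the Id2 start (region 2) was even over the libraries, at 33.9 and 33.8 against 28.8 and 34.3. Id2 encodes the Id protein best known from innate lymphoid and effector T cells.

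At Id1 the best distal region (region 15) lay 51.4 kb downstream in an intron of Bcl2l1, an inhibitor of apoptosis, at 15.4 and 27.8 against 13.4 and 24.1. Region 11, at 30.4 kb, ranked 38.5 and 48.1 against 31.4 and 35.9 and was better with IL-4 on both scales. Its neighbour at 31.6 kb (region 12) ranked 35.7 and 42.8 against 44.0 and 42.6, and was poorer with IL-4 among shared regions. At Id3, region 2 (42.9 kb upstream) ranked 21.5 and 28.6 against 22.0 and 33.4 and region 11 (20.2 kb downstream) 28.2 and 28.9 against 29.4 and 27.8, both with overlap. Among shared regions, region 2 was poorer with IL-4 (34.7 and 33.8 against 36.1 and 47.1).

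The number of distal regions called per library was 58 and 41 without IL-4 (49.5 ± 12, SD, n = 2) and 56 and 60 with it (58.0 ± 2.83, SD, n = 2). The difference of 8.5 was within the pooled SD of 8.73, and without iTreg+PBS replicate 2 it was 0. The bases inside peaks over the 6 loci were 46000 and 31695 against 45212 and 42689. The difference of 5103 bases was below the pooled SD of 7263, and without that library it turned to −2049.5.

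Locus by locus, Tcf4 was the only one where the bases inside peaks did not overlap, at 6236 and 3891 without IL-4 and 6682 and 7231 with it. The two-sided exact permutation test gave p = 0.33 there, the smallest it can give with 2 libraries against 2, and 1 after adjustment over the 6 loci. Id2 had the fewest bases, 3411 and 1891 against 3063 and 2972. At Tcf3 (8232 and 6767 against 8449 and 8005), Tcf12 (11420 and 7123 against 10279 and 10212), Id1 (6475 and 4624 against 6775 and 5386) and Id3 (10226 and 7399 against 9964 and 8883) the conditions overlapped. The lowest value at every locus was that of iTreg+PBS replicate 2. The share of other gene windows that separate as Tcf4 did is not given here, so that separation has no background beside it.

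**Figure D4:**
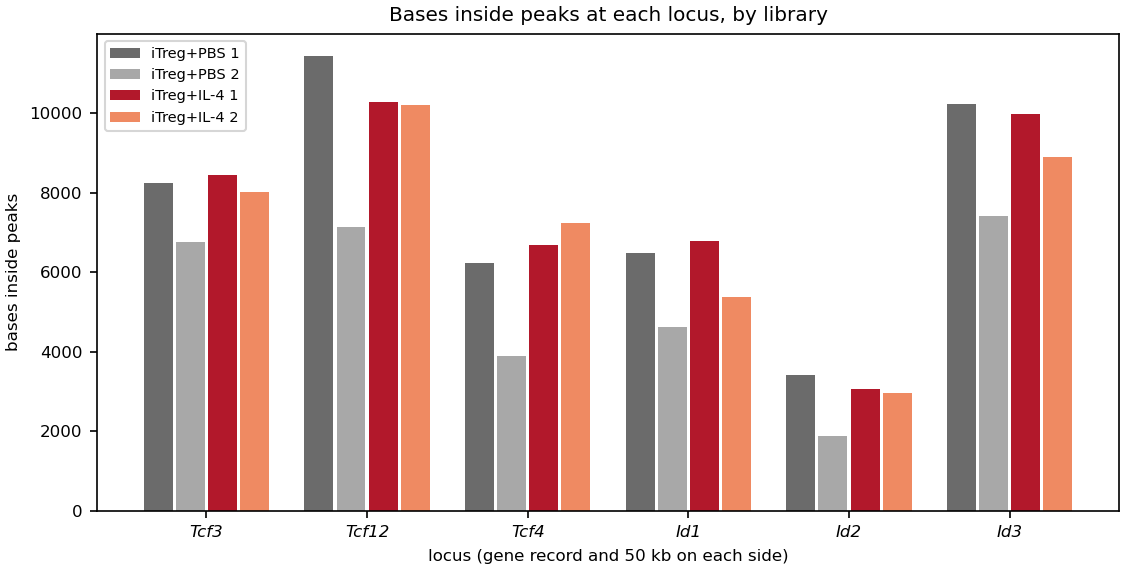
Bases inside peaks at each locus (gene record and 50 kb on each side) in each of the 4 libraries, 1 bar per library, with no error bars because each bar is a single library. iTreg+PBS replicate 2 has the lowest bar at every locus, and Tcf4 is the only locus where both iTreg+IL-4 bars (6682 and 7231) exceed both iTreg+PBS bars (6236 and 3891).

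E-boxes were counted on both strands in a window of 200 bases at the middle of every region. CANNTG occurred in 67 of the 107 regions (62.6%), in 79.5% at the Id loci, 52.9% at the E protein loci and 64.3% of all regions. CAGCTG occurred in 23.1% of regions at the Id loci, 5.88% at the E protein loci and 11.9% of all regions, and CAGGTG in 33.3%, 11.8% and 16.2%. CAGCTG and CAGGTG are also counted under CANNTG. The difference between the loci was not tested.

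The palindrome TTCNNNNGAA occurred in 6 of the 107 regions (5.61%) and in 5.84% of all regions. With 3 bases between its arms (TTCNNNGAA) it occurred in 8.41% and 8.47%. Of the 6, Tcf12 region 18 and Id3 region 2 were called in all 4 libraries, and Tcf12 regions 4 and 15, Tcf4 region 6 and Id1 region 3 in 1 library each. None of the 6 regions called only with IL-4 held it in its central bases. The GATA letters AGATAA occurred in 5.61% of regions against 7.86% of all regions, and the AP-1 letters TGANTCA in 15.0% against 12.9%. A match of letters is a description and no binding was measured.

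The genes around the E protein and Id system were described by their promoter calls, within 1 kb of any start. Their counts are set beside the same 60.2% of protein-coding genes. Of 10 other basic helix-loop-helix partners and repressors, 7 were called in all 4 libraries. Lyl1, a partner of E proteins in lymphoid progenitors, was called in none. Msc was called in replicate 1 of each condition, at 74.7 and 63.6, and Twist1 in iTreg+PBS replicate 1, at 88.1. Id4, the remaining Id gene, ranked 55.3 and 81.7 without IL-4 and 48.4 and 48.7 with it. Of 10 genes under E protein control in T cells, 7 were called in all 4 libraries, among them Gata3, Foxp3, Il7r and Foxo1. Ptcra, which encodes the pre-T cell receptor α chain, and the recombinase genes Rag1 and Rag2, all used in the thymus, were called in none.

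Of 10 genes upstream of Id expression, 9 were called in all 4 libraries. Egr1 and Egr2 were strong throughout (4.75 to 6.55 for the libraries of both genes), and Smad9, a BMP-responsive SMAD, was called in replicate 1 of each condition at 83.3 and 94.1. Of the 23 genes in the 3 lists called in all 4 libraries, both iTreg+IL-4 ranks were better in 3 and poorer in 0 on the whole-list scale, against 19.7% and 5.18% of all shared regions, so the lists did not stand above the background. The 3, named after their values were seen, were Id4, Gfi1, a transcriptional repressor (11.4 and 16.6 against 8.67 and 11.3), and Smad1 (14.1 and 17.2 against 11.7 and 12.3).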

How the data were processed

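Peak lists of 4 ATAC-seq libraries (2 iTreg+PBS, 2 iTreg+IL-4) were used. The authors mapped paired BGISEQ-500 reads to mm10 and called peaks in each library. The submitters' processing notes name Bowtie2 2.2.5, MACS2 2.1.2 and bedtools 2.16.2. Handling of duplicates, mitochondrial reads and the Tn5 shift is not given in the sources used here. The deposited columns have no header and were read from their values as the −log10 q-value of a peak (lowest just above that of q = 0.05) and the signal height of its pileup, neither scaled between libraries. Group and replicate came from the labels.

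Peaks were merged across libraries with Python 3.11.15 and numpy 2.4.6 when they shared 1 base, and assigned to GENCODE vM21 gene records with 50 kb on each side. Promoter means within 1 kb of a start. Peaks of all 21 chromosomes ended within the GRCm38 lengths. Counts were compared as described, with an exact permutation test (scipy 1.17.1) for bases per locus. The text names each promoter region, each region held by both lists of 1 condition and neither list of the other, and the 3 best-ranked distal regions per locus called in all 4 libraries. Pathway genes are named where calls differ or are absent. The members and lists were chosen with earlier results of these data known. Merging and ranking were tested on simulated data. The p-values place the observed difference among the 6 ways to split these 4 libraries, and they speak for no other libraries. The alternatives varied list length, flank, start width, overlap, ranking scale, libraries, replicate block and gene records (RefSeq, added after the data were seen).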

Additional observations from a re-analysis of the deposited data

How the results depend on the processing

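Of 73 values under 16 alternative settings, 47 stayed within 1 pooled SD or 1.5 times of the reported value and 26 moved further. The balance of better and poorer ranks turned with the ranking scale, with equal lists and without iTreg+PBS replicate 2, and the difference in bases turned without that library. The 6 regions called only with IL-4 fell to 0 with the upper 50% of each list and to 0 with lists of equal length, and ranged from 6 to 15 when single libraries were left out, while the share of all regions ranged from 3.41% to 13.6%. The 0 regions called only without IL-4 became 1 with a reciprocal overlap and 2 to 11 when single libraries were left out, 11 of them without iTreg+PBS replicate 2. The 13 shared regions with better ranks of 55 became 8 of 52 with lists of equal length, 7 of 33 with 20 kb flanks, 5 of 22 with the gene record alone and 15 to 37 when single libraries were left out. The 37 of 55 (67.3%) arose without iTreg+PBS replicate 1, against 70.8% of all regions called in those 3 libraries. Over the single omissions, the shares of all such regions were 24.3% to 70.8% better and 9.94% to 36.0% poorer. A narrower flank leaves the share of all shared regions at 19.7% better. No such share is given for equal lists or for ranks by height, so those counts have no background beside them. The 1 region with poorer ranks became 13 with equal lists, 13 among shared regions, 21 among shared regions without iTreg+PBS replicate 2 (chosen after seeing the data), 3 by height and 3 to 24 with single libraries left out. Equal lists and ranks among shared regions set the same number of peaks or regions against each other in every library. The cause of these and of the other moves was not tested. The difference in distal regions ranged from 0 to 17 and that in bases from −2049.5 to 12255.5 over the same omissions. Leaving out a library leaves 1 in its condition, so these are values with no test.

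Nothing in the labels says that replicate numbers pair the libraries. Same-numbered libraries deviated together over the 47767 shared regions (r = 0.452, rho = 0.444, across regions, which are not independent), which 2 numbers cannot settle. Replicate 1 was also the longer list in both conditions (77064 against 56645 peaks without IL-4, 78670 against 67743 with it). The part of list length in this correlation was not tested. Under the replicate block, in which ranks were compared within each number, the counts were 22 better and 7 poorer of 55, against 43.4% and 12.3% of all shared regions, and the other counts and differences did not move.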

Other observations

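The window upstream of Id1 held another sequence feature, looked for after the sequence was seen. The letters AGGGGGCGC, the core of the motif of the insulator protein CTCF, occurred in the 200 central bases of 2 of the 107 regions, Id1 region 1 and Id1 region 8 (6.4 kb downstream of the start), and in 1.03% of all regions. Id1 region 8 ranked 51.5 in iTreg+PBS replicate 1, was not called in iTreg+PBS replicate 2 and ranked 52.3 and 58.3 with IL-4, and whether it moved with region 1 cannot be read from these calls. Over the series, 597 regions called in all 4 libraries held the core, and 24.3% of them had better and 4.52% poorer ranks with IL-4, against 19.7% and 5.18% of the regions without it. Binding of CTCF was not measured.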
